A study of Mus musculus with 31 samples.

Results

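The mRNA decay machinery was followed as 51 genes that code for the enzymes, subunits and adaptors of deadenylation, decapping and decay of mRNA. The genes are a list of names with no threshold on their values, and all 51 were among the 15034 genes of the RNA-seq table. RNA-seq was made from mouse embryonic stem cells (mESCs) of the line ES-E14TG2a, kept in 2i and lif, in 12 libraries. WT (2 libraries) were mESCs with a FLAG-tag on endogenous Trim71, an RNA-binding protein, and with intact Ago2. CLIPΔ mESCs (2 libraries) lacked, on both alleles, the stretch of the Ago2 3'UTR to which Trim71 binds, and the study had 2 independent clones of them. Ago2 KO mESCs (4 libraries) lacked Ago2, the Argonaute protein that carries microRNAs (miRNAs), and Ago2 KO/CLIPΔ mESCs (4 libraries) carried both changes. The study lists the CLIPΔ, Ago2 KO and double-mutant lines as FLAG-Trim71 mESCs too, so the tag was common to all 4 genotypes. All lines were made by CRISPR/Cas9 editing and picked as clones. The clone behind each library was not given in the sources used here, so the p-values measure the spread between these libraries, which may be technical.

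Decay of most mRNAs starts with the removal of the poly(A) tail, first by PAN2-PAN3 and then by the CCR4-NOT complex. The shortened mRNA is decapped by DCP2 with its activators, among them DDX6, PATL1 and the LSM1-7 ring, and digested from the 5' end by XRN1, or it is digested from the 3' end by the RNA exosome. Ago2 bound to a miRNA recruits PAN2-PAN3 and CCR4-NOT through TNRC6 proteins. Nonsense-mediated decay, the exosome and nuclear XRN2 also act on RNAs that are not miRNA targets.

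Levels are TPM (transcript abundance scaled to the same total in each library), which the authors computed on the longest transcript of each gene. The sequencing depth is unknown, and only genes above 0 in every library are in the table. Fold changes are differences of log2(TPM + 1) from 1 limma model over the 12 libraries, and adjusted p-values (Benjamini–Hochberg, threshold 0.05) cover the 11287 genes whose mean reached 1 TPM. Of the 51 genes, 50 were tested. Cnot6l, with a mean of 0.950 TPM, was not.

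Ago2 mRNA was at 28.2 and 21.6 TPM in WT, 27.3 and 20.3 TPM in CLIPΔ, 1.67, 1.85, 1.97 and 2.29 TPM in Ago2 KO, and 1.51, 1.72, 2.87 and 2.596 TPM in Ago2 KO/CLIPΔ mESCs. It was thus lower in every library labelled Ago2 KO than in every WT or CLIPΔ library. Trim71 was at 34.9 and 34.9 TPM (WT), 27.1 and 27.6 TPM (CLIPΔ), 28.5, 25.7, 22.5 and 24.9 TPM (Ago2 KO), and 23.3, 23.97, 27.3 and 24.2 TPM (Ago2 KO/CLIPΔ). The summed level of the 7 mESC markers in the table ran from 5650 to 6999 TPM over the 12 libraries, and that of the 4 fibroblast markers from 1.59 to 3.94 TPM. The mESC markers did not move together. Pou5f1 ran from 2313 to 2879 TPM with Ago2 and from 3084 to 3262 TPM without it, while Nanog ran from 749 to 1204 TPM and from 581 to 804 TPM, and Klf4 from 1076 to 1246 TPM in WT, 731 to 825 TPM in CLIPΔ and 641 to 852 TPM without Ago2. Sox2, a defining marker of mESCs, was not among the genes of the table. By western blot, the study found Sox2 protein at similar levels in WT and CLIPΔ mESCs. The 6 early lineage markers in the table summed to between 20.8 and 26.0 TPM in WT, 14.7 and 18.1 TPM in CLIPΔ, 9.24 and 13.1 TPM in Ago2 KO, and 12.2 and 12.95 TPM in Ago2 KO/CLIPΔ mESCs, and the part of such cells, and of the mESC markers that moved, in the differences below was not tested. Since these are bulk samples, fewer cells of a type and less RNA per cell cannot be told apart. The first principal component of all genes tested held 69.4% of the variance. It separated the libraries with Ago2 (29.8 to 57.1) from those without it (-31.1 to -11.9), but also library 1 of WT and CLIPΔ (57.1 and 57.1) from library 2 (31.3 and 29.8).

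To show where Trim71 and let-7, the miRNA family that the study followed, could meet these mRNAs, the Trim71 CLIP-seq peaks and the let-7 sites in the members are given first. The authors deposited 1 list of 498 peaks common to both immunoprecipitated samples, with a read count for each peak that is not split by replicate. Of the 51 genes, 2 (3.92%) held a peak, against 316 of the 15034 genes (2.1%). The peak on Pabpc1, the main cytoplasmic poly(A)-binding protein, lay in the coding sequence on the minus strand at chr15:36600959-36600975 (mm10) and held 5094 reads. The peak on Lsm1, a subunit of the LSM1-7 ring, lay in an intron on the plus strand at chr8:25801687-25801693 (mm10) and held 3060 reads. The median peak of the list held 2280.5 reads. Both peaks are printed in 30 nt of the mm10 sequence, 5' to 3' on the strand of the gene, with the peak in capitals.
Pabpc1 peak: agctcaaTGGAAAACAGATTTATGttggac
Lsm1 peak: aagctattaatATAAAGTtaaccctgacta
How reads shared with processed copies of Pabpc1 and of the Lsm genes elsewhere in the genome were assigned is not given in the sources used here.

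A let-7 site was counted in the longest annotated 3'UTR of each gene (GENCODE M21, mm10). The 8mer CTACCTCA pairs with bases 2 to 8 of let-7 and ends in A. It was found in none of the 51 genes, against 395 of 10835 tested genes with a 3'UTR (3.65%), and taking every annotated 3'UTR left the count of members at 0. The shorter match CTACCTC, which pairs with the same bases and includes all 8mers, was found in 2 of the 51 genes, against 1145 tested genes (10.6%). Those genes were Edc3, which codes for a scaffold of the decapping complex (plus strand, chr9:57749254-57749260), and Tob2, which codes for an adaptor of CCR4-NOT (minus strand, chr15:81849288-81849294). The mature let-7a-5p is given as RefSeq has it, with the seed in capitals, and the sites in 29 nt of the 3'UTR, with the match in capitals.
let-7a-5p: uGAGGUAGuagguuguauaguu
Edc3 site: accatcatttcCTACCTCcttgtccataa
Tob2 site: gggctccggctCTACCTCcccaagcaggg
No library of this table is matched to a measure of binding at these sites, so they are given as positions and not as active sites.

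In WT mESCs the 51 genes had a median of 43.7 TPM, against 16.8 TPM over all genes tested, and 40 of the 51 were above that level. Pabpc1 led with 1694 ± 18.3 TPM (SD, n = 2), followed by Lsm4 with 482 ± 135 TPM and Upf1, the helicase of nonsense-mediated decay, with 222 ± 16.5 TPM. In all, 13 genes reached 100 TPM in WT and 8 stayed under 10 TPM. At the low end were Parn (4.44 ± 0.151 TPM), Cnot6l (1.75 ± 0.568 TPM) and Dcp1b (1.53 ± 0.283 TPM). The order is coarse, since in 41 of the 50 pairs of neighbours the WT libraries of both genes overlapped. Parts of 1 complex thus differed widely in level, as did the scaffold Cnot1 (135 ± 22.9 TPM) from the catalytic subunits Cnot7 (35.9 ± 13.2 TPM) and Cnot6 (22.4 ± 7.56 TPM).

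The loss of Ago2 was compared first, in Ago2 KO against WT and in Ago2 KO/CLIPΔ against CLIPΔ, which share no library. Both come from 1 limma model with 1 estimate of the spread per gene. Same-numbered WT and CLIPΔ libraries also deviated together (r = 0.715, from 2 pairs), so calls in both comparisons are not independent. Most decay genes were lower without Ago2. In Ago2 KO against WT, 30 of the 50 genes fell (60%) and 5 rose (10%), against 42.4% and 14.0% of all genes tested. In Ago2 KO/CLIPΔ against CLIPΔ, 32 fell (64.0%) and 4 rose (8%), against 42.1% and 12.8% of all genes tested. The members' share of falling genes was therefore above a background that was already large, and their median log2 fold changes of -0.38 and -0.45 compare with -0.26 and -0.25 over all genes tested. In the first comparison, 28 genes fell that also fell in the second, which is 93.3% of the first list and 87.5% of the second. Over all genes tested the same shares were 83.1% and 83.6%. The 4 genes that rose in both were Lsm4, Lsm7, Exosc4 and Exosc5. By plain separation of the libraries, 35 of the 50 genes were lower in every Ago2 KO than in every WT library, against 50.2% of all genes tested, and 6 were higher in every one, against 18.3% (41 in all, against 68.5%). In Ago2 KO/CLIPΔ against CLIPΔ, 37 were lower and 5 higher in every library, against 48.3% and 16.7% (42 in all, against 65.0%). The heat map of all 51 genes shows this as a change of sign between the libraries with and without Ago2, which was weaker in library 2 of WT and CLIPΔ.

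**Figure D1:**
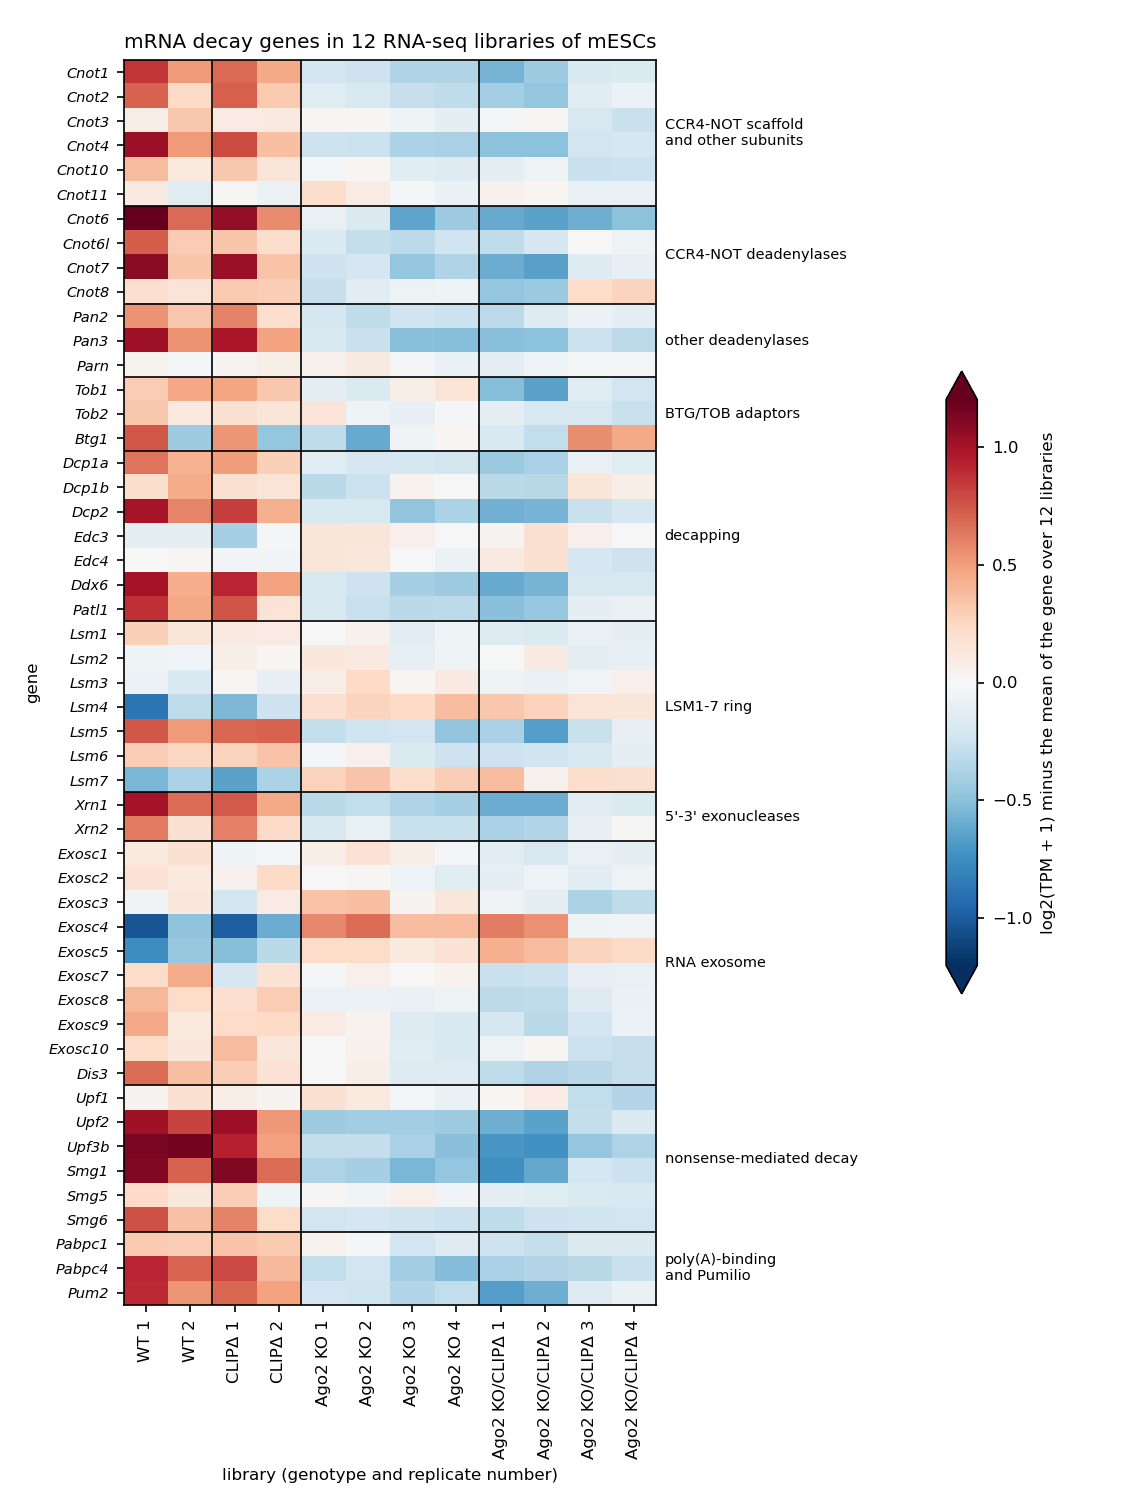
Level of each of the 51 genes (rows, by role) in the 12 libraries (columns), as log2(TPM + 1) minus the mean of the gene over the 12 libraries. Most rows go from red with Ago2 to blue without it, Lsm4, Lsm7, Exosc4 and Exosc5 go the other way, and library 1 of WT and CLIPΔ has the deepest colours.

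The CCR4-NOT complex shortens most poly(A) tails in the cytoplasm. Its scaffold Cnot1 was at 151 and 119 TPM in WT, 134 and 114 TPM in CLIPΔ, 71.2, 69.8, 64.4 and 64.1 TPM in Ago2 KO, and 56.1, 61.5, 72.9 and 73.8 TPM in Ago2 KO/CLIPΔ mESCs. No library without Ago2 reached the lowest one with it, and the log2 fold change was -0.98 ± 0.13 (SE, adjusted p = 0.00018) in Ago2 KO and -0.90 ± 0.13 (SE, adjusted p = 0.000352) in Ago2 KO/CLIPΔ mESCs. Cnot4, an E3 ubiquitin ligase associated with CCR4-NOT, was at 9.54 and 6.34 TPM (WT), 7.83 and 5.61 TPM (CLIPΔ), 3.32, 3.295, 2.96 and 2.94 TPM (Ago2 KO), and 2.66, 2.67, 3.43 and 3.43 TPM (Ago2 KO/CLIPΔ). Cnot2, which with CNOT3 forms a module near the end of the scaffold, was at 13.4 and 9.44 TPM (WT), 13.5 and 9.95 TPM (CLIPΔ), 6.96, 6.78, 6.29 and 6.14 TPM (Ago2 KO), and 5.64, 5.39, 7.09 and 7.41 TPM (Ago2 KO/CLIPΔ). Both were lower in every library without Ago2, with log2 fold changes in Ago2 KO of -1.09 ± 0.17 (SE, adjusted p = 0.000329) for Cnot4 and -0.70 ± 0.17 (SE, adjusted p = 0.00397) for Cnot2. Cnot10 fell less (log2 fold change -0.32 ± 0.11 SE, adjusted p = 0.0267), and Cnot3 and Cnot11 did not pass the threshold in either comparison. Of the 6 subunits without catalytic activity for the poly(A) tail, 4 fell and none rose in each comparison. Of all genes tested, 42.4% fell and 14.0% rose in Ago2 KO, and 42.1% and 12.8% in Ago2 KO/CLIPΔ mESCs. After the correction for length and GC content given below, Cnot1 and Cnot4 still passed in both comparisons, and Cnot2 and Cnot10 in neither. Cnot3 then passed as lower in both (-0.30 and -0.29), and Cnot11 as higher in Ago2 KO only. Centred on the library median, Cnot10 passed in neither, and Cnot11 passed as higher in both (0.42 and 0.34).

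Of the 3 catalytic subunits tested, Cnot6 and Cnot7 fell in both comparisons and Cnot8 did not pass. Cnot6, which codes for a CCR4-type deadenylase, was at 27.7 and 17.03 TPM in WT, 22.3 and 15.7 TPM in CLIPΔ, 9.53, 8.95, 6.24 and 7.28 TPM in Ago2 KO, and 6.39, 6.199, 6.51 and 6.99 TPM in Ago2 KO/CLIPΔ mESCs. The log2 fold change of Cnot6 was -1.35 ± 0.20 (SE, adjusted p = 0.000305) and -1.39 ± 0.20 (SE, adjusted p = 0.000322) in Ago2 KO against WT and in the double mutant against CLIPΔ. Cnot7, which codes for a CAF1-type deadenylase, was at 45.2 and 26.6 TPM in WT, 43.7 and 26.7 TPM in CLIPΔ, 17.4, 18.03, 14.8 and 15.99 TPM in Ago2 KO, and 13.4, 12.9, 18.6 and 19.4 TPM in Ago2 KO/CLIPΔ mESCs. Library 1 of WT and CLIPΔ lay well above library 2, yet all libraries without Ago2 were below both, and Cnot7 fell by 1.03 on the log2 scale in Ago2 KO (SE 0.24, adjusted p = 0.0037). Its paralogue Cnot8 ranged from 27.7 to 46.7 TPM without Ago2 and was at 43.1 and 44.4 TPM in WT. It was lower in every Ago2 KO than in every WT library, and in every Ago2 KO/CLIPΔ than in every CLIPΔ library. In the limma model over 12 libraries Cnot8 did not pass the threshold (log2 fold change -0.30 ± 0.20 SE, adjusted p = 0.208 in Ago2 KO). With the replicate number as a block it did (-0.51, adjusted p = 0.015 in Ago2 KO and -0.62, adjusted p = 0.00652 in Ago2 KO/CLIPΔ). Fitted with only the genotypes compared, it passed in Ago2 KO (adjusted p = 0.0294) and not in Ago2 KO/CLIPΔ mESCs (adjusted p = 0.185). Cnot6l, the paralogue of Cnot6, was too low to be tested and was at 2.16 and 1.35 TPM (WT), 1.39 and 1.196 TPM (CLIPΔ), 0.692, 0.555, 0.531 and 0.615 TPM (Ago2 KO), and 0.536, 0.653, 0.907 and 0.824 TPM (Ago2 KO/CLIPΔ).

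PAN2-PAN3 trims long poly(A) tails first. Pan3, the subunit that binds RNA and the poly(A)-binding protein, was at 6.43 and 4.33 TPM in WT, 6.201 and 4.12 TPM in CLIPΔ, 2.23, 2.04, 1.59 and 1.58 TPM in Ago2 KO, and 1.59, 1.61, 2.06 and 1.95 TPM in Ago2 KO/CLIPΔ mESCs. Pan2, the catalytic subunit, was at 56.4 and 48.2 TPM (WT), 58.7 and 44.4 TPM (CLIPΔ), 33.3, 30.8, 32.5 and 32.01 TPM (Ago2 KO), and 30.7, 34.4, 36.5 and 35.5 TPM (Ago2 KO/CLIPΔ). Both were lower in all 8 libraries without Ago2 than in the 4 with it, and the log2 fold changes in Ago2 KO were -1.15 ± 0.17 (SE, adjusted p = 0.000342) for Pan3 and -0.68 ± 0.12 (SE, adjusted p = 0.000679) for Pan2. Parn, a poly(A)-specific ribonuclease outside both complexes, ranged from 3.98 to 4.81 TPM over the 12 libraries, and the groups overlapped (log2 fold change 0.01 ± 0.10 SE, adjusted p = 0.954 in Ago2 KO).

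BTG and TOB proteins link CCR4-NOT to the poly(A)-binding protein or to other RNA-binding proteins. Tob1 was at 76.1 and 85.3 TPM in WT, 85.7 and 77.3 TPM in CLIPΔ, 56.6, 54.2, 64.8 and 69.1 TPM in Ago2 KO, and 42.97, 39.1, 55.6 and 52.3 TPM in Ago2 KO/CLIPΔ mESCs. It fell in both comparisons, by 0.40 on the log2 scale in Ago2 KO (SE 0.15, adjusted p = 0.0358) and by 0.78 in Ago2 KO/CLIPΔ mESCs (SE 0.15, adjusted p = 0.00122). Tob2 was at 46.3 and 39.9 TPM (WT), 41.8 and 40.8 TPM (CLIPΔ), 40.995, 35.6, 34.1 and 36.1 TPM (Ago2 KO), and 33.997, 32.03, 31.9 and 30.2 TPM (Ago2 KO/CLIPΔ). It passed the threshold in Ago2 KO/CLIPΔ mESCs (log2 fold change -0.36 ± 0.10 SE, adjusted p = 0.00928) and not in Ago2 KO (-0.23 ± 0.10 SE, adjusted p = 0.0682), and the interaction did not pass. Btg1 was at 45.1 and 19.5 TPM in WT, 38.9 and 19.02 TPM in CLIPΔ, 21.3, 17.2, 25.8 and 26.96 TPM in Ago2 KO, and 23.4, 21.5, 39.5 and 36.9 TPM in Ago2 KO/CLIPΔ mESCs. Library 1 of WT and CLIPΔ was far above library 2, and Btg1 had the largest SE of the 50 members in this comparison. It did not pass the threshold in the model without a block (log2 fold change -0.39 ± 0.36 SE, adjusted p = 0.38 in Ago2 KO). With the replicate number as a block over 12 libraries, Btg1 passed in Ago2 KO (-0.68, adjusted p = 0.0242). It did not in Ago2 KO/CLIPΔ mESCs (-0.20, adjusted p = 0.464).

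Among the decapping genes, the catalytic enzyme and its activators fell, and the EDC scaffolds did not. Dcp2, the decapping enzyme, was at 53.7 and 40.3 TPM in WT, 48.2 and 36.1 TPM in CLIPΔ, 23.4, 23.2, 18.9 and 20.2 TPM in Ago2 KO, and 17.5, 17.8, 21.9 and 22.8 TPM in Ago2 KO/CLIPΔ mESCs. Ddx6, a helicase that joins CCR4-NOT to decapping, was at 76.7 and 51.6 TPM in WT, 72.2 and 53.4 TPM in CLIPΔ, 32.998, 31.8, 28.4 and 27.7 TPM in Ago2 KO, and 24.5, 25.3, 32.98 and 33.03 TPM in Ago2 KO/CLIPΔ mESCs. All libraries without Ago2 were below all libraries with it for both genes, with log2 fold changes in Ago2 KO of -1.09 ± 0.16 (SE, adjusted p = 0.000305) for Dcp2 and -1.04 ± 0.18 (SE, adjusted p = 0.000746) for Ddx6. Patl1, which bridges deadenylation and decapping, was at 41.95 and 31.3 TPM (WT), 38.6 and 25.2 TPM (CLIPΔ), 19.6, 18.4, 17.7 and 17.8 TPM (Ago2 KO), and 15.5, 16.1, 20.6 and 21.2 TPM (Ago2 KO/CLIPΔ). Dcp1a, the activating partner of DCP2, was at 18.3 and 15.4 TPM (WT), 16.4 and 13.98 TPM (CLIPΔ), 10.1, 9.73, 9.61 and 9.56 TPM (Ago2 KO), and 8.06, 8.42, 10.6 and 10.1 TPM (Ago2 KO/CLIPΔ). Their log2 fold changes in Ago2 KO were -0.94 ± 0.18 (SE, adjusted p = 0.00117) for Patl1 and -0.72 ± 0.13 (SE, adjusted p = 0.000688) for Dcp1a. Dcp1b, the paralogue of Dcp1a, ranged from 0.592 to 1.73 TPM over the 12 libraries and passed the threshold in Ago2 KO (-0.47 ± 0.17 SE, adjusted p = 0.0315) but not in Ago2 KO/CLIPΔ mESCs (-0.28 ± 0.17 SE, adjusted p = 0.179). Edc3 and Edc4, which code for scaffolds of the decapping complex, gave log2 fold changes of 0.20 ± 0.11 (SE, adjusted p = 0.149) and 0.05 ± 0.12 (SE, adjusted p = 0.733) in Ago2 KO, and neither passed the threshold in either comparison. Of the 7 genes, 5 fell in Ago2 KO and 4 in Ago2 KO/CLIPΔ mESCs, against 42.4% and 42.1% of all genes tested.

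The subunits of the LSM1-7 ring, which binds the 3' end of deadenylated mRNA and activates decapping, moved in both directions. Lsm4 was at 387 and 578 TPM in WT, 489 and 600.5 TPM in CLIPΔ, 814, 857, 839 and 920.3 TPM in Ago2 KO, and 891, 860.4, 794 and 787 TPM in Ago2 KO/CLIPΔ mESCs. Lsm7 was at 99.9 and 113 TPM (WT), 93.8 and 113 TPM (CLIPΔ), 178, 187, 170.2 and 180.5 TPM (Ago2 KO), and 190.4, 152, 169.9 and 168 TPM (Ago2 KO/CLIPΔ). Both were higher in every library without Ago2, with log2 fold changes of 0.86 ± 0.14 (SE, adjusted p = 0.000539) and 0.74 ± 0.11 (SE, adjusted p = 0.000234) in Ago2 KO. Lsm5 was at 83.7 and 70.9 TPM in WT, 79.97 and 81.3 TPM in CLIPΔ, 40.3, 41.6, 41.98 and 35.3 TPM in Ago2 KO, and 37.4, 30.8, 40.9 and 45.96 TPM in Ago2 KO/CLIPΔ mESCs. It fell by 0.94 on the log2 scale in Ago2 KO (SE 0.14, adjusted p = 0.000305) and by 1.05 in Ago2 KO/CLIPΔ mESCs (SE 0.14, adjusted p = 0.000198). Lsm6 and Lsm1 also passed as lower in both comparisons, by 0.36 and 0.25 on the log2 scale in Ago2 KO, but not after centring (-0.016 and 0.099) or the correction for length and GC content given below (0.13 and 0.12). Lsm3 rose in Ago2 KO (0.24 ± 0.09 SE, adjusted p = 0.032) and not in Ago2 KO/CLIPΔ mESCs (0.01 ± 0.09 SE, adjusted p = 0.897). Lsm2, which Lsm8-containing nuclear rings share with LSM1-7, did not pass the threshold in either. In Ago2 KO the ring thus had 3 rising and 3 falling genes of 7, against 14.0% and 42.4% of all genes tested. Its summed level was 1564 ± 54.9 TPM (SD, n = 4) against 1123 ± 125 TPM (n = 2) in WT, most of it from Lsm4.

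**Figure D2:**
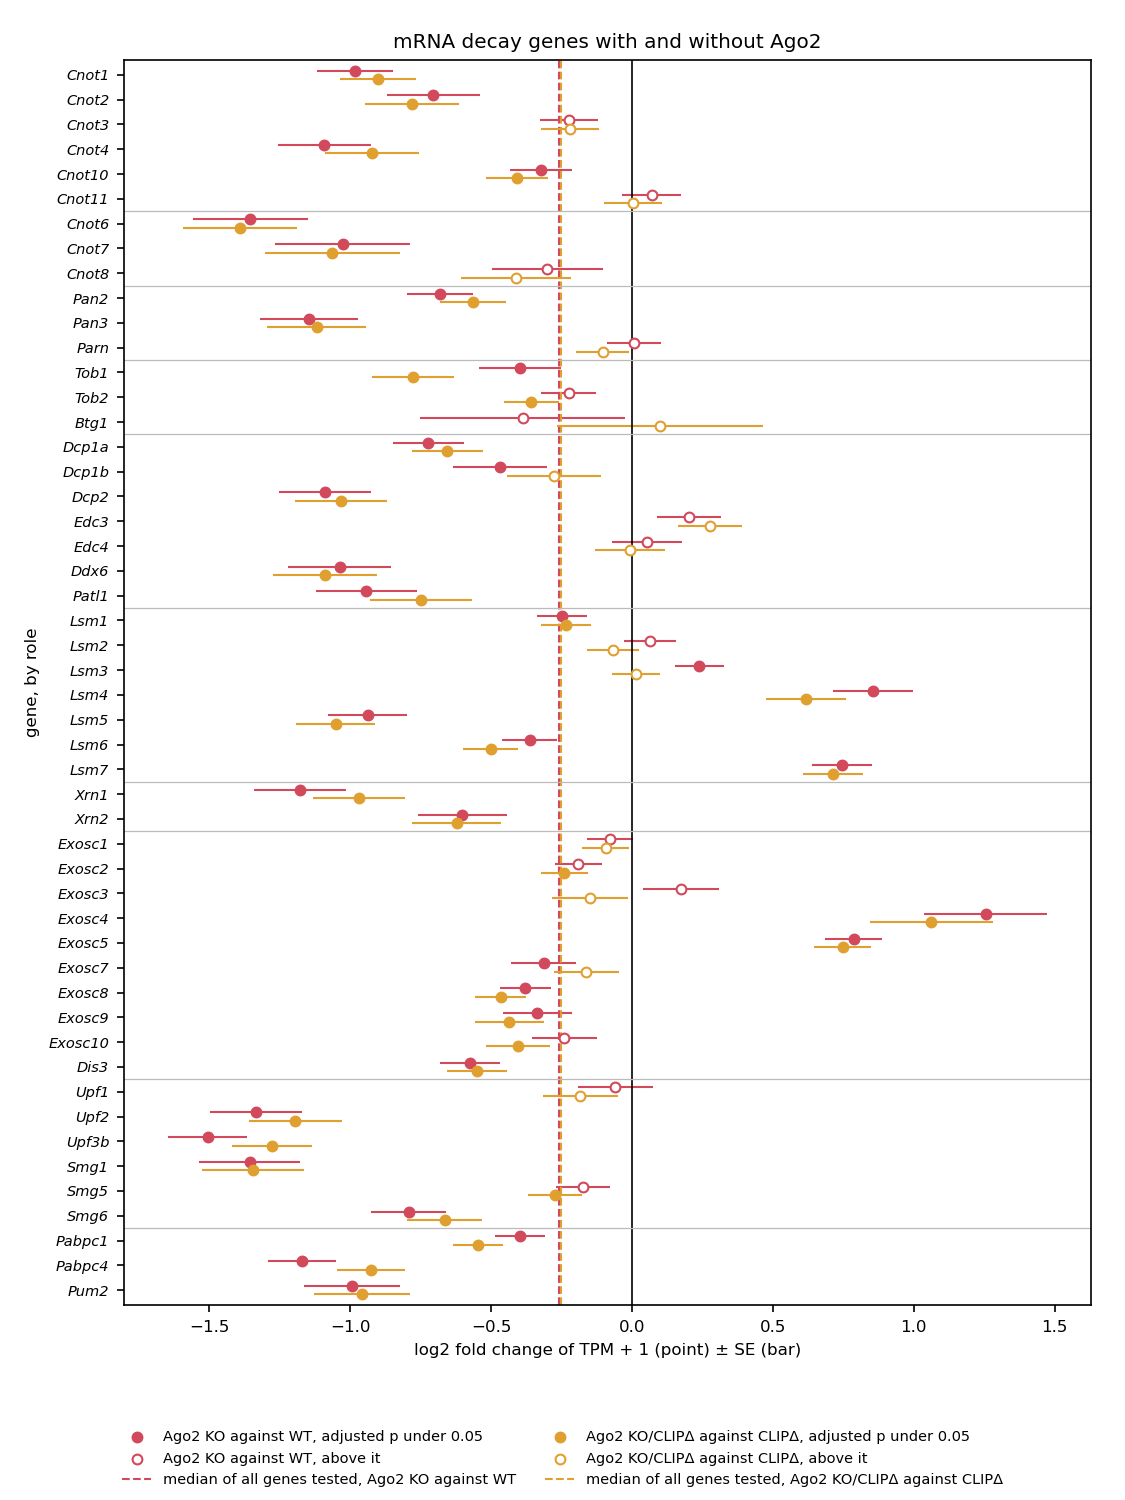
Log2 fold change of TPM + 1 with its SE (bars) for the 50 tested genes by role, in Ago2 KO against WT (red) and Ago2 KO/CLIPΔ against CLIPΔ (yellow). Filled points have an adjusted p under 0.05, the dashed lines mark the medians of all genes tested at -0.26 and -0.25, and the points run from -1.51 for Upf3b to 1.26 for Exosc4.

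Both 5' to 3' exonucleases were lower without Ago2. Xrn1, the cytoplasmic enzyme that degrades decapped mRNA, was at 7.598 and 5.82 TPM in WT, 6.17 and 4.89 TPM in CLIPΔ, 2.43, 2.51, 2.33 and 2.25 TPM in Ago2 KO, and 1.85, 1.84, 2.92 and 2.83 TPM in Ago2 KO/CLIPΔ mESCs. The log2 fold change of Xrn1 was -1.18 ± 0.16 (SE, adjusted p = 0.000193) in Ago2 KO and -0.97 ± 0.16 (SE, adjusted p = 0.000668) in Ago2 KO/CLIPΔ mESCs. Xrn2, the nuclear enzyme, ranged from 18.5 to 24.9 TPM without Ago2 and from 28.0 to 38.4 TPM with it, with log2 fold changes of -0.60 ± 0.16 (SE, adjusted p = 0.00718) and -0.62 ± 0.16 (SE, adjusted p = 0.00627). After the correction for length and GC content Xrn2 no longer passed (-0.036 and -0.039), and Xrn1 passed in Ago2 KO (-0.24, adjusted p = 0.0148) but not in Ago2 KO/CLIPΔ mESCs (-0.15, adjusted p = 0.0953). Centred, Xrn1 passed in both comparisons and Xrn2 in neither.

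The RNA exosome, a barrel of inactive subunits with a catalytic subunit attached, degrades RNA from the 3' end. Exosc4 was at 77.6 and 113 TPM in WT, 79.8 and 105 TPM in CLIPΔ, 237, 254, 206 and 207 TPM in Ago2 KO, and 245, 233, 154 and 156 TPM in Ago2 KO/CLIPΔ mESCs. Exosc5 was at 85.1 and 105 TPM in WT, 101 and 114 TPM in CLIPΔ, 167, 168, 156 and 162 TPM in Ago2 KO, and 193, 188, 174 and 169 TPM in Ago2 KO/CLIPΔ mESCs. These barrel subunits were higher in every library without Ago2 than in every one with it, and rose by log2 fold changes of 1.26 ± 0.22 (SE, adjusted p = 0.000685) for Exosc4 and 0.79 ± 0.10 (SE, adjusted p = 0.000126) for Exosc5 in Ago2 KO. Dis3, the catalytic subunit, was at 64.1 and 51.5 TPM (WT), 49.1 and 45.04 TPM (CLIPΔ), 39.8, 42.2, 35.7 and 35.7 TPM (Ago2 KO), and 32.1, 30.8, 31.4 and 32.7 TPM (Ago2 KO/CLIPΔ). It fell, with log2 fold changes of -0.57 ± 0.11 (SE, adjusted p = 0.000973) in Ago2 KO and -0.55 ± 0.11 (SE, adjusted p = 0.0014) in Ago2 KO/CLIPΔ mESCs, but after a correction for length and GC content, given below, these were 0.10 and 0.09 and did not pass. Exosc8 and Exosc9 passed as lower in both comparisons, by 0.38 and 0.34 on the log2 scale in Ago2 KO. Centred on the library median, neither passed (-0.031 and 0.011), and after the correction Exosc8 did (-0.35) and Exosc9 did not (0.035). Exosc7 passed the threshold in Ago2 KO, and Exosc2 and Exosc10 in Ago2 KO/CLIPΔ mESCs, and the interaction did not pass for any of them. Exosc1 and Exosc3 did not pass the threshold in either. Counted over the 10 genes, 4 fell and 2 rose in Ago2 KO, against 42.4% and 14.0% of all genes tested. In Ago2 KO/CLIPΔ mESCs 5 fell and 2 rose, against 42.1% and 12.8%. The median log2 fold changes of the 10 genes were -0.22 and -0.20, near those of all genes tested (-0.26 and -0.25).

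Nonsense-mediated decay (NMD) removes mRNAs with premature stop codons, and its genes held the lowest fold change of all members in Ago2 KO. Upf3b, which joins the NMD factors to the exon junction complex, was at 44.1 and 44.8 TPM in WT, 38.4 and 28.02 TPM in CLIPΔ, 15.9, 15.9, 14.7 and 13.5 TPM in Ago2 KO, and 11.7, 11.4, 13.98 and 14.96 TPM in Ago2 KO/CLIPΔ mESCs. Both CLIPΔ libraries lay below both WT libraries without passing the threshold, and the lowest CLIPΔ library was above all libraries without Ago2 (log2 fold change -1.51 ± 0.14 SE, adjusted p = 3.62e-05 in Ago2 KO and -1.28 ± 0.14 SE, adjusted p = 7.59e-05 in Ago2 KO/CLIPΔ). Smg1, the kinase that phosphorylates UPF1, was at 27.7 and 20.6 TPM in WT, 27.7 and 20 TPM in CLIPΔ, 9.27, 9.04, 8.03 and 8.58 TPM in Ago2 KO, and 6.93, 7.62, 10.5 and 10.1 TPM in Ago2 KO/CLIPΔ mESCs. Upf2, which bridges UPF1 and UPF3B, was at 9.96 and 8.501 TPM (WT), 10.01 and 6.79 TPM (CLIPΔ), 3.03, 3.06, 3.06 and 3.04 TPM (Ago2 KO), and 2.598, 2.47, 3.45 and 3.82 TPM (Ago2 KO/CLIPΔ). Smg6, the NMD endonuclease, was at 6.85 and 4.89 TPM (WT), 5.97 and 4.38 TPM (CLIPΔ), 2.94, 2.999, 2.91 and 2.86 TPM (Ago2 KO), and 2.73, 2.88, 2.92 and 2.93 TPM (Ago2 KO/CLIPΔ). The 3 genes were lower in every library without Ago2, with log2 fold changes in Ago2 KO of -1.36 ± 0.18 (SE, adjusted p = 0.000164) for Smg1, -1.33 ± 0.16 (SE, adjusted p = 0.000105) for Upf2 and -0.79 ± 0.13 (SE, adjusted p = 0.000564) for Smg6. Upf1, the core helicase, was at 209.9 and 233 TPM in WT, 216 and 209 TPM in CLIPΔ, 232, 223, 202 and 194 TPM in Ago2 KO, and 209, 219, 167 and 160.2 TPM in Ago2 KO/CLIPΔ mESCs. These values overlapped between the groups, and Upf1 did not pass the threshold (log2 fold change -0.06 ± 0.13 SE, adjusted p = 0.72 in Ago2 KO and -0.18 ± 0.13 SE, adjusted p = 0.255 in Ago2 KO/CLIPΔ). Smg5 passed it only in Ago2 KO/CLIPΔ mESCs (-0.27 ± 0.10 SE, adjusted p = 0.0293).

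All 3 remaining genes, which code for proteins that bind the poly(A) tail or the 3'UTR, fell in both comparisons, as did 35.2% of all genes tested. Pabpc1 was at 1707 and 1681 TPM in WT, 1736 and 1707 TPM in CLIPΔ, 1412, 1347, 1167 and 1231 TPM in Ago2 KO, and 1156, 1123, 1221 and 1216 TPM in Ago2 KO/CLIPΔ mESCs. It fell by 0.40 on the log2 scale in Ago2 KO (SE 0.09, adjusted p = 0.00317) and by 0.55 in Ago2 KO/CLIPΔ mESCs (SE 0.09, adjusted p = 0.000601). Pabpc4, its paralogue, was at 176 and 152 TPM (WT), 162 and 123 TPM (CLIPΔ), 75.98, 79.4, 69.7 and 64.6 TPM (Ago2 KO), and 70.9, 72.8, 73.99 and 77.2 TPM (Ago2 KO/CLIPΔ). Pum2, a Pumilio protein that recruits CCR4-NOT to mRNAs with its motif, was at 26.03 and 19.9 TPM (WT), 22.4 and 19.3 TPM (CLIPΔ), 11.3, 11.3, 10.4 and 10.8 TPM (Ago2 KO), and 8.14, 8.68, 12.01 and 12.7 TPM (Ago2 KO/CLIPΔ). In Ago2 KO the log2 fold change was -1.17 ± 0.12 (SE, adjusted p = 5.03e-05) for Pabpc4 and -0.99 ± 0.17 (SE, adjusted p = 0.000653) for Pum2. Pabpc4 also passed in both comparisons when centred or corrected. Pabpc1 passed in neither comparison under either (in Ago2 KO -0.050 centred and -0.049 corrected), and Pum2 passed when centred but, in Ago2 KO, not when corrected (-0.20, adjusted p = 0.0524). The plot of 12 of the genes by library shows the size of these steps beside the difference between the 2 WT libraries.

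**Figure D3:**
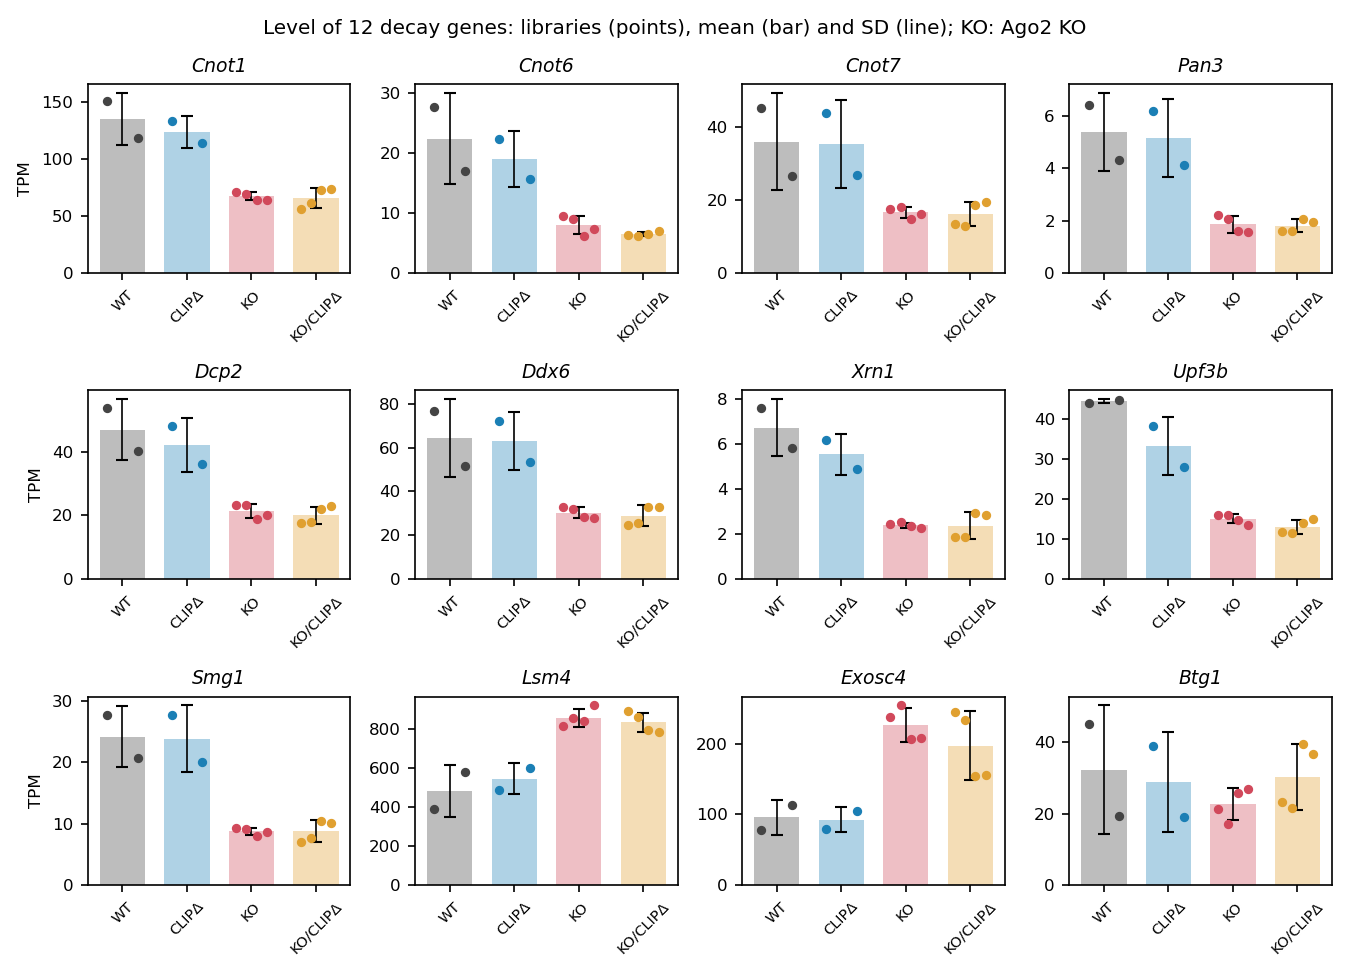
TPM of 12 decay genes in WT (n = 2), CLIPΔ (n = 2), Ago2 KO (n = 4) and Ago2 KO/CLIPΔ (n = 4) mESCs, with a point for each library, bars for the mean and lines for the SD. In 11 of the 12 genes every library without Ago2 lies on 1 side of every library with it, and in Btg1 (17.2 to 45.1 TPM) the groups overlap. All but Btg1 are among the 24 members with the largest changes that passed, so this count does not describe the 50 tested members. In Ago2 KO against WT, 82.0% of the members and 68.5% of all genes tested did not overlap. In Ago2 KO/CLIPΔ against CLIPΔ these shares were 84.0% and 65.0%.

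Other genes of mRNA decay, a list of 49 of which 41 were in the table and tested, were also mostly lower without Ago2. In Ago2 KO against WT, 29 fell and 2 rose (Exosc6 and Dcps), against 42.4% and 14.0% of all genes tested. In Ago2 KO/CLIPΔ against CLIPΔ, 30 fell and 4 rose (Smg9, Dcps, Nudt16 and Dxo), against 42.1% and 12.8%. The median log2 fold changes were -0.57 and -0.55, against -0.26 and -0.25 over all genes tested. None of the 41 passed in CLIPΔ against WT, in Ago2 KO/CLIPΔ against Ago2 KO or in the interaction, against 2.27%, 0.877% and 0.647% of all genes tested. The largest absolute log2 fold changes among those that passed were in Btg2, Lsm8, Tut7 and Skiv2l2. Tut7, a terminal uridylyltransferase, had a log2 fold change of -1.11 ± 0.18 (SE, adjusted p = 0.000491) in Ago2 KO, and Lsm8, the subunit of the nuclear LSM ring, of -0.83 ± 0.16 (SE, adjusted p = 0.00135). Skiv2l2, the helicase of the nuclear exosome, gave -0.99 ± 0.20 (SE, adjusted p = 0.00174), and Btg2, an antiproliferative BTG protein, passed the threshold only in Ago2 KO/CLIPΔ mESCs (-1.24 ± 0.33 SE, adjusted p = 0.00868, against -0.76 ± 0.33 SE, adjusted p = 0.071 in Ago2 KO).

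Several measured properties moved with these differences. Genes with a transcript of low GC content were lower without Ago2, in the decay genes as in all genes. Across the 50 members, the log2 fold change in Ago2 KO had a Pearson's r of 0.69 with GC content and of -0.54 with the log2 length of the transcript, against 0.50 and -0.31 across 11212 genes. These correlations are across genes, which share all libraries and are not independent. Of the 24 members of low GC content (up to 47.78%, the lowest tercile of all genes), 21 fell and 1 rose in Ago2 KO, against 69.9% and 2.3% of all genes of that tercile, with a median log2 fold change of -0.96 against -0.60. Of the 8 members in the highest tercile (above 54.14%), none fell and 4 rose in Ago2 KO, against 18% and 28.1% of all genes of that tercile, and 1 fell and 4 rose in Ago2 KO/CLIPΔ mESCs, against 16.9% and 26.5%. The median log2 fold change of that tercile in Ago2 KO was 0.40 for the members and 0.12 for all genes. Lsm4 (59.4% GC, 925 nt), Lsm7 (55.5%, 1129 nt), Exosc4 (54.9%, 1796 nt) and Exosc5 (55.1%, 1680 nt) were GC-rich and short, while Cnot6 (39.8%, 5736 nt), Xrn1 (41.9%, 10256 nt) and Smg1 (44.9%, 15557 nt) were neither. Lsm5 (36.6%, 494 nt) was short and GC-poor, and fell, and Pabpc4 (52.5%, 3111 nt) fell at a GC content (52% to 54%) where the median log2 fold change of all genes tested was -0.10.

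**Figure D4:**
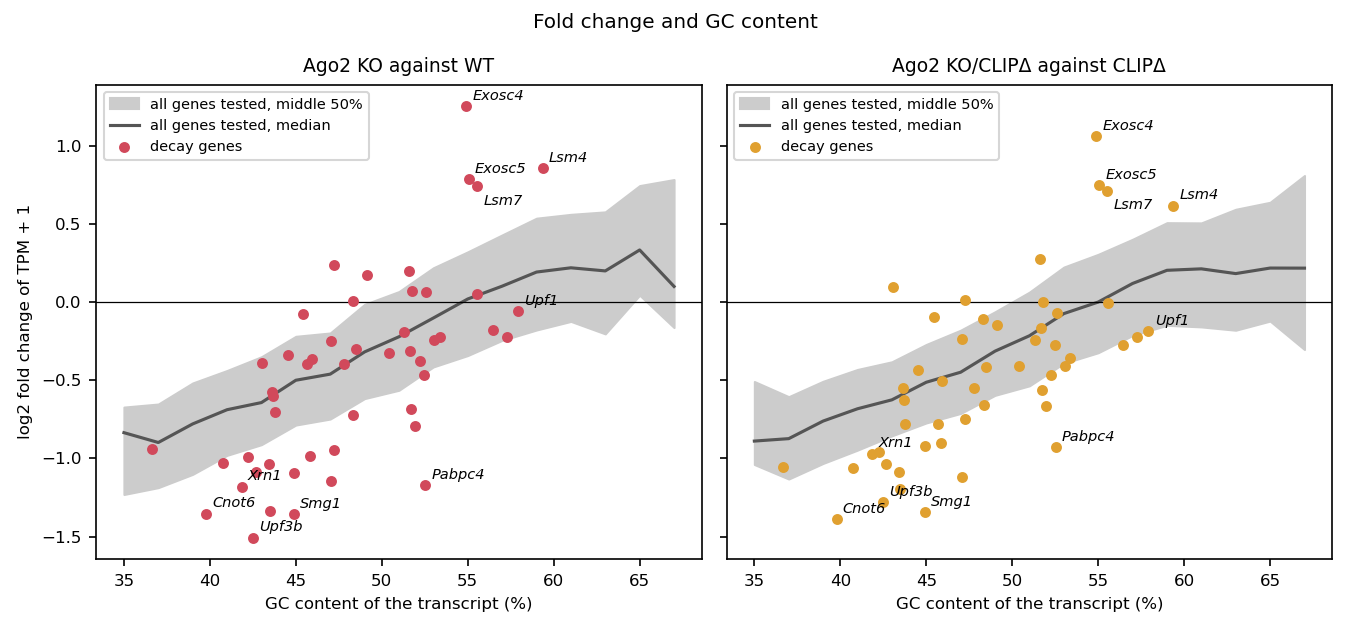
Log2 fold change of the 50 tested genes (points) against the GC content of the longest coding transcript, in both comparisons of the loss of Ago2, with the median (line) and the middle 50% (band) of all genes tested in bins of 2% GC. The band climbs from left to right, and the members' points climb with it. By construction, 50% of all genes in each bin lie outside the band, and the members outside it were not counted. Among those outside it in both panels are Pabpc4, Upf3b, Smg1, Cnot6, Upf2, Exosc4, Exosc5, Lsm4 and Lsm7.

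Each library was then corrected for length and GC content across genes, an alternative chosen after the data were seen. In Ago2 KO, 18 of the 50 members were then lower and 9 higher, against 20.9% and 22.8% of all genes tested. Of the 30 falling members 17 still fell, and all 5 rising members still rose. Cnot3 was newly lower, and Cnot11, Parn, Edc3 and Exosc1 were newly higher. The 17 genes included Cnot1, Cnot4, Cnot6, Pan2, Pan3, Dcp1a, Dcp2, Ddx6, Patl1, Xrn1, Upf2, Upf3b, Smg1, Smg6 and Pabpc4. The corrected log2 fold changes were smaller, at -0.27 for Cnot1, -0.23 for Dcp2, -0.24 for Xrn1, -0.98 for Upf3b and -1.01 for Pabpc4. Among the genes that no longer passed were Cnot7 (-0.37), Pum2 (-0.20), Lsm5 (-0.14), Xrn2 (-0.04), Tob1 (-0.01) and Pabpc1 (-0.05), and Lsm1, Lsm6, Exosc9 and Dis3 (0.10) turned to values above 0, here and in Ago2 KO/CLIPΔ mESCs. In Ago2 KO/CLIPΔ against CLIPΔ, 15 of 32 falling and all 4 rising members passed in the same direction after the correction. There Cnot3 was newly lower, and Parn, Edc3, Lsm3 and Exosc1 were newly higher. Of all genes tested, 19.4% were then lower and 22.5% higher. Centring each library on its median gene, which moved the median of all genes tested from -0.26 to 0.09 in Ago2 KO, gave 19 falling and 11 rising members, against 21.0% and 31.5% of all genes tested, and 19 falling and 9 rising members in Ago2 KO/CLIPΔ, against 21.0% and 30.1%. Pabpc1 and Dis3 were among the genes that passed before centring and not after it, while Edc3, Parn, Cnot11 and Exosc1 rose after it in both comparisons.

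Libraries of 1 genotype differed along similar lines. In CLIPΔ, 34 of the 50 members were lower in library 2 than in library 1, with a median difference of -0.12 and a range from -0.996 (Btg1) to 0.39 (Exosc4) in log2(TPM + 1). Over all genes tested that median was -0.015. In WT, 36 members were lower in library 2, with a median of -0.19, against -0.024 over all genes tested. The difference between the CLIPΔ libraries had an r of 0.73 with the log2 fold change of Ago2 KO against WT over the 50 members, and of 0.51 over all 11287 genes, although these values share no library. Without WT library 1, 26 of the 50 members passed the threshold in Ago2 KO (21 lower and 5 higher, against 29.5% and 7.56% of all genes tested, 37.0% in all). Without CLIPΔ library 1, 26 passed in Ago2 KO/CLIPΔ (23 lower and 3 higher, against 27.2% and 5.29%). What differed between libraries 1 and 2 is not given in the sources used here, and its further part in the fold changes was not tested.

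The CLIPΔ deletion was compared next, to see the decay genes in mESCs where Trim71 no longer binds Ago2 mRNA. None of the 50 members passed the threshold in CLIPΔ against WT in the limma model, against 2.27% of all genes tested (1.46% higher and 0.806% lower), and 3 had an unadjusted p under 0.05. Fold changes ran from -0.43 (Upf3b) to 0.20 (Lsm4) on the log2 scale with SEs from 0.09 to 0.42, and the smallest adjusted p was 0.262, so differences within these errors were not detectable with 2 libraries a group. Of the members, 3 were higher (Cnot8, Lsm2 and Pabpc1) and 7 lower (Dcp1b, Edc4, Lsm1, Exosc1, Exosc7, Dis3 and Upf3b) in both CLIPΔ libraries than in both WT libraries, against 11.3% and 19.5% of all genes tested (10 in all, against 30.9%). Lsm1, which held an intronic Trim71 peak, was at 23.9 and 21.5 TPM (WT), 20.98 and 20.8 TPM (CLIPΔ), 19.5, 20.1, 17.6 and 18.6 TPM (Ago2 KO), and 17.2, 17.1, 18.1 and 17.9 TPM (Ago2 KO/CLIPΔ). Its log2 fold change in CLIPΔ was -0.11 ± 0.10 (SE, adjusted p = 0.725), and that of Pabpc1 was 0.02 ± 0.10 (SE, adjusted p = 0.961). For the genes with a let-7 match, the log2 fold change in CLIPΔ was -0.09 ± 0.13 (SE, adjusted p = 0.852) for Edc3 and -0.06 ± 0.11 (SE, adjusted p = 0.904) for Tob2.

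The same deletion without Ago2 was compared in Ago2 KO/CLIPΔ against Ago2 KO. None of the 50 members passed in the limma model over 12 libraries, against 0.877% of all genes tested (0.275% higher and 0.602% lower), and 5 had an unadjusted p under 0.05. Libraries 1 and 2 of both genotypes deviated together, as did libraries 3 and 4, also where the numbers differed, so fits of the 8 libraries with a block are given beside it. With the replicate number as the block, 3 of 49 tested members passed, against 7.34% of all genes tested. Exosc3 was at 96.3 and 109 TPM in WT, 84.8 and 106 TPM in CLIPΔ, 126, 127, 101 and 109 TPM in Ago2 KO, and 96.1, 91.99, 76.02 and 79.9 TPM in Ago2 KO/CLIPΔ mESCs. It had the lowest log2 fold change of the members, with -0.43 ± 0.11 (SE, adjusted p = 0.119) over 12 libraries and -0.43 ± 0.04 (SE, adjusted p = 0.00424) in the blocked fit, and its values did not overlap between these genotypes. Tob1 had -0.37 ± 0.06 (SE, adjusted p = 0.0153) and Btg1 0.37 ± 0.08 (SE, adjusted p = 0.044) in the blocked fit. With libraries 1 and 2 and libraries 3 and 4 as the blocks, chosen after the data were seen, 10 of 49 members passed. Of these, 2 were higher (Btg1 and Exosc5) and 8 lower (Tob1, Tob2, Exosc1, Exosc3, Exosc7, Dis3, Upf1 and Smg5), against 5.14% and 11.5% of all genes tested (16.6% in all). With the correction for length and GC content in the fit blocked on the replicate number, 9 of 49 members passed (2 higher and 7 lower), against 8.18% and 7.74% of all genes tested, among them again Exosc3, Tob1 and Btg1. Over 12 libraries, 1 member (Exosc5) was higher and 6 (Tob2, Exosc1, Exosc3, Exosc7, Dis3 and Smg5) were lower in every Ago2 KO/CLIPΔ than in every Ago2 KO library, against 3.83% and 9.54% of all genes tested.

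Libraries 1 and 2 of these genotypes did not give the same picture as libraries 3 and 4. Between libraries 1 and 2 of both genotypes, 45 of the 50 members were lower in Ago2 KO/CLIPΔ, with a median difference of -0.23 in log2(TPM + 1) against -0.13 over all genes tested. Between libraries 3 and 4, 30 were higher and 20 lower, with medians of 0.02 and 0.05. In all, 27 members were lower in the first pair and higher in the second, 18 were lower in both and 3 were higher in both. Cnot7 differed by -0.40 and 0.29, Ddx6 by -0.37 and 0.23, and Xrn1 by -0.29 and 0.23. Exosc3 (-0.43 and -0.43), Tob1 (-0.43 and -0.31) and Btg1 (0.22 and 0.52) kept their sign. In a limma fit of libraries 3 and 4 alone, 24 of 50 members passed (15 higher and 9 lower, against 23.0% and 15.4% of all genes tested, 38.5% in all), while none of 51 passed among libraries 1 and 2 of all genotypes, where none of all genes passed either. These counts are not alike, since the second fit also held WT and CLIPΔ. Their libraries differed more (SD of the members' differences 0.321 and 0.299). Fitted beside WT and CLIPΔ, libraries 3 and 4 also gave no gene that passed. Within a pair, the libraries of 1 genotype were close, with an SD of the members' differences from 0.0643 to 0.0909 in log2(TPM + 1), against 0.149 between the pairs of Ago2 KO and 0.284 between those of the double mutant. Whether a pair of libraries stands for a clone, a day or a run is not given in the sources used here.

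**Figure D5:**
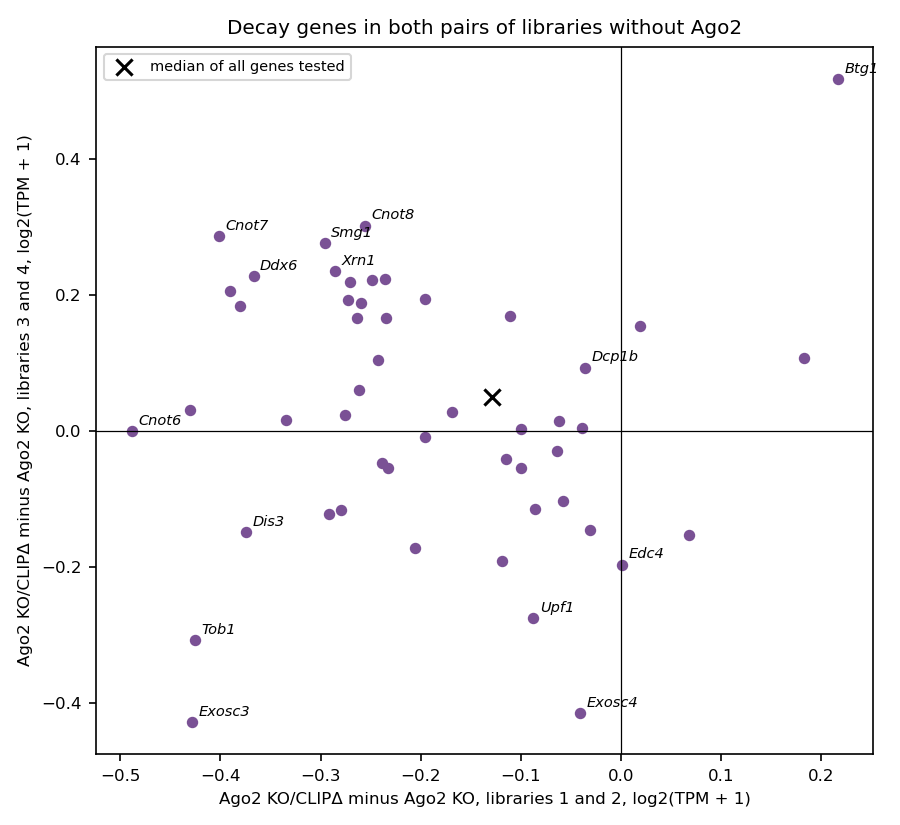
Difference in log2(TPM + 1) between Ago2 KO/CLIPΔ and Ago2 KO for the 50 tested genes, in libraries 1 and 2 (x axis) and in libraries 3 and 4 (y axis). The upper left part holds 27 genes that change sign between the pairs, and Exosc3, Tob1 and Btg1 lie far from both axes where the signs are equal.

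The interaction of both changes asks if the effect of the deletion on the decay genes depended on Ago2. None of the 50 members passed in the limma model, against 0.647% of all genes tested, and none had an unadjusted p under 0.05. The estimates ran from -0.38 (Tob1) to 0.49 (Btg1) on the log2 scale, with SEs from 0.12 to 0.51, and their smallest adjusted p was 0.725.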

How the data were processed

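The RNA-seq libraries were 12 of the 31 samples of the series and covered all 4 genotypes. For these, HISAT2 2.1.0 was run against mm10, HTSeq assigned the reads to 1 transcript per gene (the longest), and the authors deposited the result as TPM. Columns named d3 were read as CLIPΔ by elimination. The depth is unknown from these values. The authors also deposited read counts per Trim71 CLIP-seq peak, for peaks common to both replicates. Small RNA libraries were not used here.

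TPM values were transformed to log2(TPM + 1), filtered at a mean of 1 TPM and fitted with limma 3.58.1 in R 4.3.3 (trended empirical Bayes, 12 libraries, Benjamini–Hochberg). The script was tested on simulated data with independent noise in each library, which did not cover deviations shared between libraries. Transcripts, GC content and 3'UTRs came from GENCODE M21, and tables were made with Python 3.11.15. The members and gene lists were chosen with earlier results of these data known. Values in every library are given for the 24 members with the largest change that passed and for a short list of core enzymes, and for a few others chosen after their values were seen (Tob2, Lsm1, Exosc3). Replicate numbers come from the labels. Deviations of same-numbered Ago2 KO and Ago2 KO/CLIPΔ libraries correlated at 0.433, 0.320, 0.420 and 0.360, and the fit with the number as a block is given. Library 1 of one genotype with 2 of the other, and 3 with 4, correlated as well (0.335 to 0.467), so the numbers mark 2 sets (1 and 2, 3 and 4) rather than 4 pairs, and a block of these sets was added.

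Alternatives were another pseudocount (0.1), no filter or a mean of 5 TPM, median centring, a replicate block, subsets of libraries, leaving out each library and, chosen after seeing the data, libraries 3 and 4 of the Ago2 KO genotypes beside WT and CLIPΔ and a correction for length and GC content (natural splines with 4 degrees of freedom), alone and with the replicate block, and the block of sets.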

Additional observations from a re-analysis of the deposited data

Results flagged for a closer look

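Of 102 groups of 4 libraries (each of the 51 genes in Ago2 KO and in Ago2 KO/CLIPΔ mESCs), none held a library whose gap to the next, divided by the range, exceeded Dixon's critical value for 4 values.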

How the results depend on the processing

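For the named genes that passed, 548 of 567 alternative values in Ago2 KO against WT and 550 of 567 in Ago2 KO/CLIPΔ against CLIPΔ kept the direction and the side of the threshold. Among these, Dis3 turned to 0.10 and 0.094 after the length and GC correction. Most named genes were chosen for large changes that passed, and leaving out a library of a genotype not compared leaves the fold change the same. These counts therefore do not measure how stable the members were. Centring kept 19 of the 30 falling members in Ago2 KO against WT, and the correction 17. In Ago2 KO/CLIPΔ against CLIPΔ, they kept 19 and 15 of 32. Both kept all rising members. The members' median log2 fold change in Ago2 KO against WT was -0.036 when centred and -0.10 when corrected, and in Ago2 KO/CLIPΔ against CLIPΔ -0.12 when centred, -0.18 when corrected and -0.55 in libraries 1 and 2. With the replicate number as a block, the median was -0.47 over 12 libraries in Ago2 KO against WT and -0.56 within the genotypes compared in Ago2 KO/CLIPΔ against CLIPΔ. In Ago2 KO/CLIPΔ against Ago2 KO, the replicate block gave 1 member over 12 libraries, 3 within the genotypes compared and 9 with the length and GC correction, and a block of libraries 1 and 2 and of 3 and 4 gave 10. Same-numbered WT and CLIPΔ libraries also deviated together (r = 0.715, from 2 pairs whose source is not given), and the block over 12 libraries left 0 members in that comparison. In Ago2 KO/CLIPΔ against Ago2 KO, libraries 3 and 4 alone gave 24 members and a median of 0.020, and 0.024 beside WT and CLIPΔ, against -0.23 in libraries 1 and 2. There Cnot1 (0.19), Cnot2 (0.19), Cnot7 (0.29), Dcp2 (0.18), Ddx6 (0.23), Pan3 (0.22), Patl1 (0.22), Pum2 (0.21), Smg1 (0.28), Tut7 (0.26) and Xrn1 (0.23) turned to higher. The median interaction was 0.11 with only libraries 3 and 4 of the Ago2 KO genotypes. The shorter let-7 match gave 2 members. The cause of these changes was not tested.

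Leaving out 1 library at a time gave 26 to 35 members and medians of -0.45 to -0.36 in Ago2 KO against WT, 26 to 36 members and medians of -0.52 to -0.42 in Ago2 KO/CLIPΔ against CLIPΔ, and 0 members and medians of -0.10 to -0.05 in Ago2 KO/CLIPΔ against Ago2 KO. The median ran from -0.16 (without WT library 2) to 0.043 (without WT library 1) in CLIPΔ against WT, and from -0.12 (without WT library 1) to 0.059 (without WT library 2) for the interaction. The unknown depth and 2 libraries in WT and CLIPΔ limit what small differences could be seen.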

Other observations

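The balance between paralogues differed where 1 of them fell more. The ratio of Cnot8 to Cnot7, which code for alternative deadenylases of the same site in CCR4-NOT, was 0.98 and 1.62 in the WT libraries and 1.11 and 1.78 in CLIPΔ, and ran from 1.82 to 2.499 in Ago2 KO and from 2.06 to 2.43 in Ago2 KO/CLIPΔ mESCs. All 8 libraries without Ago2 were thus above the 4 with it. The ratio of Pabpc1 to Pabpc4, both poly(A)-binding proteins, was 9.68 and 11.04 in WT, 10.7 and 13.9 in CLIPΔ, 16.8 to 19.1 in Ago2 KO and 15.4 to 16.5 in Ago2 KO/CLIPΔ mESCs. The ratio of Xrn2 to Xrn1, the nuclear and the cytoplasmic 5' to 3' exonuclease, was 5.06 and 4.81 in WT, 6.14 and 5.93 in CLIPΔ, 8.72 to 9.21 in Ago2 KO and 7.85 to 10.3 in Ago2 KO/CLIPΔ mESCs. For Tob1 to Tob2, Cnot6 to Cnot6l and Dcp1a to Dcp1b the ranges overlapped between the libraries with and without Ago2. As the pairs were picked after their values were seen, these ratios are given with no test.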
